A study of Homo sapiens with 18 samples.

Results

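FOXA1 binding was compared between T47D and SKBR3, a pair of established human breast cancer lines of the luminal kind, from the peak lists of 4 chromatin immunoprecipitation sequencing (ChIP-seq) libraries, 2 for each line. T47D is a line with estrogen and progesterone receptors. SKBR3 is a line with amplified ERBB2 and without estrogen receptor. The series also holds the line MDA-MB-453, the corepressor TLE3 in all 3 lines and inputs, 18 samples in all, and its 12 peak lists hold 1134209 peaks, of which the 4 FOXA1 lists compared here hold 520670. The labels name no treatment for any group. FOXA1 was precipitated in each line with the same Diagenode antibody, TLE3 with a Proteintech antibody after an added crosslinking step. The labels call the replicates biological without saying how they were grown, so the p-values measure the spread between these libraries. A line stands for itself here and not for a tumour subtype. A site was a merged region with a peak of both replicates of a line. A site was shared when it overlapped a site of the other line by at least 1 bp, specific when neither replicate of the other line had a peak there, and between when a peak of the other line, but no site of it, lay there. This gave 112670 T47D sites and 90520 SKBR3 sites.

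FOXA1 is a forkhead transcription factor of luminal breast cells. It is called a pioneer factor because it binds its motif in closed chromatin and makes the site accessible to other factors, among them the estrogen receptor in estrogen receptor positive cells. Most of its sites lie away from promoters, in enhancers. TLE3, of the Groucho corepressors, does not bind a DNA motif itself and is brought to chromatin by partner factors.

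The sequences at hand are the RefSeq promoters of build GRCh38.p14, which are 300 bases long, 250 before and 50 after a transcription start. They are shown first because promoters of T47D-specific and SKBR3-specific sites differed in composition. The 250 bases before the start are printed, 5′ to 3′, with the forkhead motif in capitals, which is TGTTTAC or TATTTAC on either strand. They are the 2 best ranked promoters of protein-coding genes in each class whose motif lies inside a site of it. They were chosen after their values were seen, and not by composition, so they do not show that of their class. TCF4 and CTDP1 hold many CG dinucleotides and SOX6 few, the reverse of the class medians given below. ZSCAN18 (chr19:58098232-58098481, minus strand) and SOX6 (chr11:16356547-16356796, minus strand) carry a T47D-specific site. TCF4 (chr18:55589812-55590061, minus strand) and CTDP1 (chr18:79679553-79679802, plus strand) carry an SKBR3-specific site. SPDEF (chr6:34556330-34556579, minus strand) and TBL1X (chrX:9463045-9463294, plus strand) carry a shared site. SPDEF encodes an ETS factor of luminal epithelium, TBL1X a subunit of the NCOR corepressor complex, SOX6 and TCF4 encode transcription factors and CTDP1 a phosphatase of RNA polymerase II.
ZSCAN18: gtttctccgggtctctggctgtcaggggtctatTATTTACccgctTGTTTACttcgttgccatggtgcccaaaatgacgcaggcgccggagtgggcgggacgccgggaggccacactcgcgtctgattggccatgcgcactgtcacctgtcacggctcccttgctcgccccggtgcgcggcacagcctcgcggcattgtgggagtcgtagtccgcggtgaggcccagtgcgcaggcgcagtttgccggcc
SOX6: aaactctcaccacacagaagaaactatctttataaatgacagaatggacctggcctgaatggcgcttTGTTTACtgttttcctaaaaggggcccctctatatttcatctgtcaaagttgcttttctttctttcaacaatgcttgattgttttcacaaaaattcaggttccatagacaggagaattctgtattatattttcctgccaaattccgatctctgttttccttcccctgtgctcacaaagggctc
TCF4: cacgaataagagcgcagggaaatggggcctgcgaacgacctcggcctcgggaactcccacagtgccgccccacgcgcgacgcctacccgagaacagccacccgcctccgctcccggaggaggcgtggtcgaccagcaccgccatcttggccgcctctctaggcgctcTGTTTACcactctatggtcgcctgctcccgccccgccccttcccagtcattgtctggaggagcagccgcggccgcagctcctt
CTDP1: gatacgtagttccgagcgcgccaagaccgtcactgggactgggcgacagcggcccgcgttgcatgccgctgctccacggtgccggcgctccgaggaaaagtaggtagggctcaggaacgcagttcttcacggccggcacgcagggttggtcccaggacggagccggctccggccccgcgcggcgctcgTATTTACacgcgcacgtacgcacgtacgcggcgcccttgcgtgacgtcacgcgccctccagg
SPDEF: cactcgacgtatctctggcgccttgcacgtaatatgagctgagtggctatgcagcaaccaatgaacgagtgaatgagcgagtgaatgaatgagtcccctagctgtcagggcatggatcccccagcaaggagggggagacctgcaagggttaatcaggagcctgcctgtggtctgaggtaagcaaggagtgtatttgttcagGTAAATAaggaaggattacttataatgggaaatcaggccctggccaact
TBL1X: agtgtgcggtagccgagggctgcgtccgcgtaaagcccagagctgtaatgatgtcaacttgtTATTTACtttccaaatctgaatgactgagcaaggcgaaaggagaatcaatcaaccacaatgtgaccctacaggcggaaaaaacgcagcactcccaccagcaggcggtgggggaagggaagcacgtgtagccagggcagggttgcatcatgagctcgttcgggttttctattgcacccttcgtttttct

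The ZSCAN18 promoter lies in a site at percentile 98.2 of the T47D lists by score and holds 2 motifs. No MDA-MB-453 FOXA1 library and no TLE3 library of any line had a peak at that ZSCAN18 site. The TBL1X promoter lies in a shared site at percentile 99.91, and the SPDEF promoter in 1 at percentile 99.86. Both MDA-MB-453 FOXA1 libraries had a peak at the TBL1X site and at the SPDEF site.

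A promoter with a T47D-specific site and without the motif is that of PGR, which encodes the progesterone receptor (chr11:101129064-101129313, minus strand). It is printed with its CG dinucleotides in capitals, of which the 250 bases hold 12. The window of 300 bases holds 17, below the median of 25 for windows at T47D-specific sites. The site over it lies at percentile 88.7 in T47D, and both T47D TLE3 libraries and both MDA-MB-453 FOXA1 libraries had a peak there.
PGR: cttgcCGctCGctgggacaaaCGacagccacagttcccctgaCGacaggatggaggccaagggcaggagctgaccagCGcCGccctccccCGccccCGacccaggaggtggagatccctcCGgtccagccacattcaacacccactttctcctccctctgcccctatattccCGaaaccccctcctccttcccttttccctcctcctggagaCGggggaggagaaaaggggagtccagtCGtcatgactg

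Promoters with a T47D-specific site were many, rich in CG dinucleotides and seldom held the forkhead motif, while those with an SKBR3-specific site were few, poor in CG and held it more often. Of 34789 distinct promoter windows, 2547 overlapped a T47D-specific site (7.32%), 333 an SKBR3-specific site (0.957%) and 4139 a shared site (11.9%). The median window held 25 CG dinucleotides at T47D-specific sites, 5 at SKBR3-specific sites, 21 at shared sites and 14 over all windows. The forkhead motif was found in 5.54% of windows at T47D-specific sites (95% Wilson interval 4.71 to 6.49), in 15.3% at SKBR3-specific sites (11.8 to 19.6), in 13.1% at shared sites (12.2 to 14.2) and in 5.97% of all windows. With lists of equal length, 1417 windows overlapped a T47D-specific site and 452 an SKBR3-specific site, and 7.34% and 14.4% of them held the motif. The intervals cover the counting of windows alone, and windows of neighbouring starts overlap.

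The order of the motif shares depended on the CG content of the windows. Among windows with at most 4 CG dinucleotides, 24.1% of 241 at T47D-specific sites held the motif, against 16.3% of 153 at SKBR3-specific sites and 11.0% of all such windows. Among windows with more than 14, the shares were 2.29% of 1962 at T47D-specific sites, 13.3% of 75 at SKBR3-specific sites and 2.64% of all such windows. The AP-1 motif TGANTCA was found in 4.95% of windows at T47D-specific sites, in 17.1% at SKBR3-specific sites and in 7.69% of all windows. The GATA motif AGATAA was found in 6.95% at T47D-specific sites, 12.3% at SKBR3-specific sites and 10.4% of all windows. The AP-1 and GATA shares were not split by CG content, in which the classes differed. At most 4 CG dinucleotides were held by 9.46% of windows at T47D-specific sites and 45.95% at SKBR3-specific sites. The palindromic estrogen response element, GGTCA and TGACC with any 3 bases between them, was found in 0 of 2547 windows at T47D-specific sites and 0 of 333 at SKBR3-specific sites, against 20 of all 34789 windows. A match is a description of the letters in these windows, and no match says nothing about binding of a factor.

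T47D had more FOXA1 peaks than SKBR3. The T47D libraries held 147283 and 149015 peaks on chromosomes 1 to 22 and X, against 107598 and 116768 in the SKBR3 libraries, or 148149 ± 1225 in T47D and 112183 ± 6484 in SKBR3 (SD, n = 2 each). The groups do not overlap, and the ratio was 1.32 (log2 0.40). The exact two-sided permutation test over 6 arrangements of the 4 libraries gave p = 0.333, the smallest that 2 against 2 libraries allow, so that no comparison between the lines can reach 0.05. Replicates resembled each other in both lines: 77.4% and 76.8% of the T47D peaks and 85.3% and 78.5% of the SKBR3 peaks were overlapped by the other replicate. The lists give no read counts, so the depth is unknown and its part in the number of peaks was not tested. Results are therefore also given at equal list length, with the 107598 highest scored peaks of each list. Sites and classes were then built anew from the cut lists. A site called specific there can thus have a peak of the other line below the cut. The cut removed peaks scored below 9.82 and 9.18 in T47D replicates 1 and 2 and below 6.10 in SKBR3 replicate 2, and none of SKBR3 replicate 1.

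Of the T47D sites, 55133 (48.9%) were shared, 12859 (11.4%) between and 44678 (39.7%) T47D-specific. Of the SKBR3 sites, 54908 (60.7%) were shared, 9521 (10.5%) between and 26091 (28.8%) SKBR3-specific. At equal list length the order of the specific shares turned round, with 33.1% of T47D sites (27921 of 84328) and 35.6% of SKBR3 sites (31161 of 87511). The shared share was then 56.0% of T47D sites and 54.0% of SKBR3 sites. The larger specific share of T47D therefore held for the whole lists and not for lists of 1 length. SKBR3-specific sites rose from 26091 to 31161 at equal list length, where peaks had been cut from the T47D lists.

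**Figure D1:**
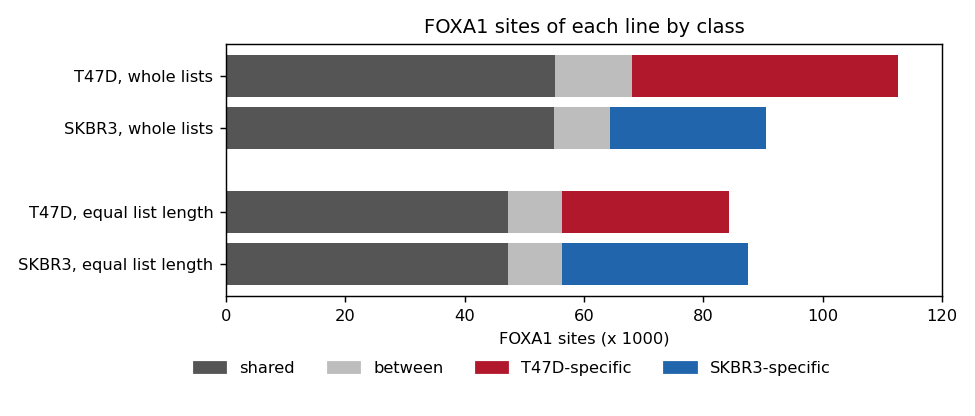
Number of FOXA1 sites of T47D and of SKBR3 by class, for whole lists and for lists of equal length; grey parts are shared and between, coloured parts specific. The T47D-specific part is the longer one in whole lists (44678 against 26091 sites) and the shorter one at equal length (27921 against 31161).

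Shared sites held the stronger peaks in all 4 libraries. The probability that a peak at a shared site had a higher authors' score than a peak at a specific site of the same list was 0.770 and 0.751 in the T47D libraries and 0.702 and 0.687 in the SKBR3 libraries. Above the 0.5 of no difference the mean was 0.228 ± 0.0393 (SD, n = 4), positive in 4 of 4 libraries. The exact two-sided sign-flip test gave p = 0.125, the smallest that 4 libraries allow. Here and in the sign-flip tests below, both libraries of a line were read at the same sites. The 4 values are thus not independent, and the SD also holds the gap between the lines. Among the top 10% of peaks by score, 7.84% and 7.11% in T47D and 5.21% and 5.81% in SKBR3 lay at specific sites, and 88.6% to 91.9% at shared ones. Over whole lists, 30.6% and 30.2% of the T47D peaks and 24.5% and 22.6% of the SKBR3 peaks lay at specific sites. Within the bottom 10% the shares were 26.0% and 26.0% in T47D and 23.9% and 15.9% in SKBR3, so specific sites were below their overall share there too.

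Peaks were narrower in T47D and narrower at specific sites. The median width was 374 and 382 bp in the T47D libraries, against 432 and 417 bp in the SKBR3 libraries, with no overlap (difference -46.5 bp, exact permutation p = 0.333). At equal list length the medians were 423 and 428 bp in T47D and 432 and 434 bp in SKBR3, so that most of the gap was absent there. The median width at specific minus shared sites was -120.2 ± 21.8 bp (SD, n = 4 libraries, narrower at specific sites in 4 of 4, exact sign-flip p = 0.125).

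T47D-specific sites lay at gene ends and transcription starts more often than SKBR3-specific sites. A gene end, either end of any of 59080 RefSeq genes, lay within 1 kb of 11.1% and 11.2% of the peaks at T47D-specific sites, against 7.11% and 7.12% of those at SKBR3-specific sites. At shared sites the share was 12.5% and 12.6% of the T47D peaks and 12.5% and 12.5% of the SKBR3 peaks, so the lines differed in their specific sites. A transcription start lay within 1 kb of 6.62% of T47D-specific sites and 2.49% of SKBR3-specific sites, and at equal list length of 5.77% and 2.68%. The gene-end share at specific minus shared sites was -3.38 ± 2.28 percentage points (SD, n = 4, lower at specific sites in 4 of 4, exact sign-flip p = 0.125). Replicates of a line were alike in this share, so the SD is mostly the gap between the lines. The direction did not hold in every library for the upper 50% of each list or without T47D replicate 2. Over whole libraries, 12.5% and 11.0% of T47D peaks and 10.6% and 10.5% of SKBR3 peaks were at gene ends (difference 1.22 points, exact permutation p = 0.333).

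The gene-end share of T47D-specific sites was higher among weak sites. It was 13.5% of sites at score percentiles 0 to 25 and 7.73% at percentiles 75 to 100, while the shared sites of T47D had 11.1% and 13.4%. SKBR3-specific sites had 8.13% and 6.59% in the same ranges. In the distance to genes the order was the opposite. The median distance between a site and the closest protein-coding gene end was 52905.5 bp for T47D-specific sites and 42440 bp for SKBR3-specific sites, and 55272 and 42711 bp at equal list length. More T47D-specific sites thus lay at a start, while their median distance was the larger. A shared site lay within 10 kb of 32.4% of T47D-specific sites and 46.8% of SKBR3-specific sites, and at equal list length of 29.2% and 41.8%.

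Genes near the specific sites were counted over 19970 protein-coding genes, with sites whose centre lay within 50 kb of either gene end, so that the middle of a long gene is not counted. A T47D-specific site lay near 76.9% of all genes, an SKBR3-specific site near 57.4% and a shared site near 84.5%. More T47D-specific than SKBR3-specific sites were found near 52.8% of genes and the reverse near 27.7%. This order too turned round at equal list length, with 35.3% of genes having more T47D-specific and 40.9% more SKBR3-specific sites. At equal list length both T47D libraries had more peaks than both SKBR3 libraries near 28.7% of genes, and both SKBR3 libraries more near 28.7%. These library shares are the background for the lists below. Peak counts given for single genes are those of whole lists unless equal list length is stated. The stretch counted grows with gene length up to a limit, and the background was not matched for length. The median length was 24.2 kb over all genes and 11.4 to 22.5 kb in 7 lists. It was 48.5 kb for estrogen response, 50.5 kb for corepressor and 103.7 kb for ERBB receptor and ligand genes. The excess of T47D-specific over SKBR3-specific sites near a gene had a median of 1 and ran from -19 to 31, with 228 genes at 10 or more and 59 at -10 or less. With lists of equal length its median was 0 and its range -19 to 20, and the tally turned round, with 59 genes at 10 or more and 131 at -10 or less.

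The genes with the largest T47D excess were MED13L, TRPS1, RERG, PRLR, PGR, ESR1, CUEDC1, LURAP1L, FRS2 and CDH3, leaving out neighbours within 500 kb. They include the receptors for estrogen (ESR1), progesterone (PGR) and prolactin (PRLR), and RERG, a Ras-like growth inhibitor named for its regulation by estrogen. MED13L, a Mediator subunit (chr12:115958576-116277693, hg38), had 31 T47D-specific sites, 0 SKBR3-specific and 10 shared ones, from 55 and 52 peaks in T47D and 12 and 13 in SKBR3. RERG had 26 T47D-specific sites and 1 SKBR3-specific site (an excess of 25, and of 41 without T47D replicate 2), from 47 and 41 peaks in T47D and 6 and 6 in SKBR3. The choice of these genes fixed their direction.

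At PGR (chr11:101029624-101129813), 24 sites were T47D-specific, 0 SKBR3-specific and 7 shared, with 48 and 40 peaks in T47D against 10 and 9 in SKBR3. In lists of equal length PGR had 34 and 34 peaks in T47D, against 10 and 8 in SKBR3. At PRLR, 24 sites were T47D-specific and 0 SKBR3-specific, with 50 and 46 peaks in T47D against 15 and 17 in SKBR3. ESR1 (chr6:151656672-152129619) was less one-sided. It had 27 T47D-specific and 5 SKBR3-specific sites, with 44 and 43 peaks in T47D against 18 and 18 in SKBR3, and at equal list length 34 and 31 against 18 and 16.

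TRPS1, a GATA-type repressor of luminal cells on chromosome 8, had 32 T47D-specific sites, 5 SKBR3-specific and 22 shared ones. Its excess of 27 sites in whole lists was 7 at equal list length, where T47D had 52 and 45 peaks and SKBR3 36 and 35. GREB1, an estrogen receptor cofactor and target, had 16 T47D-specific sites and 0 SKBR3-specific ones, with 27 and 29 peaks in T47D against 8 and 11 in SKBR3. GATA3, a luminal transcription factor, had 12 and 2, with 25 and 22 peaks in T47D against 13 and 11 in SKBR3. The FOXA1 gene itself had 17 shared sites, 7 T47D-specific and 2 SKBR3-specific ones. In lists of equal length it had 27 and 25 peaks in T47D and 21 and 26 in SKBR3, which overlap.

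The cadherin genes CDH3 and CDH1 stood in a stretch without any SKBR3 peak. CDH3 encodes P-cadherin, a basal marker, and CDH1 encodes E-cadherin, the adhesion molecule of luminal epithelium. CDH3 had 22 and 27 FOXA1 peaks in T47D and 0 and 0 in SKBR3, and CDH1 had 21 and 24 in T47D and 2 and 2 in SKBR3. The stretch at chr16:68592861-68843456 (hg38), 250.6 kb long, held 23 and 28 FOXA1 peaks in T47D and 24 and 24 in MDA-MB-453, and 0 in both SKBR3 FOXA1 libraries. In SKBR3 both TLE3 libraries also had 0 peaks in that stretch, against 9 and 19 in the T47D TLE3 libraries. SKBR3 is known as an E-cadherin-negative line. The lists hold neither copy number nor input reads, so that DNA missing in SKBR3 and FOXA1 missing from DNA cannot be told apart.

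ACTA2 (smooth muscle actin, a myoepithelial gene) and NRG3 (a ligand of ERBB4) were also free of SKBR3 sites. ACTA2 had 17 and 20 peaks in T47D and 0 and 1 in SKBR3. NRG3 had 22 and 21 in T47D and 0 and 0 in SKBR3. In the stretch of 999.7 kb at NRG3 without an SKBR3 FOXA1 peak, the SKBR3 TLE3 libraries held 0 and 5 peaks and the MDA-MB-453 FOXA1 libraries 65 and 54.

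The genes with the largest SKBR3 excess were LRTM1, SH3BP4, SPNS3, TSPAN14, TAF1B, KIRREL3, PPT1, GPR63, BAIAP2L1 and FBLN1. LRTM1 (chr3:54918231-54967102) had 19 SKBR3-specific sites and 0 T47D-specific ones, with 1 and 1 peaks in T47D against 21 and 23 in SKBR3. SPNS3 had 17 SKBR3-specific and 0 T47D-specific sites, with 6 and 6 peaks in T47D and 28 and 31 in SKBR3. TSPAN14, a tetraspanin, had 11 and 12 peaks in T47D and 30 and 31 in SKBR3. FBLN1, which encodes an extracellular matrix fibulin, had 7 and 9 in T47D and 23 and 24 in SKBR3. Their direction, too, was fixed by the choice. None of the 10 belongs to the gene lists used here.

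**Figure D2:**
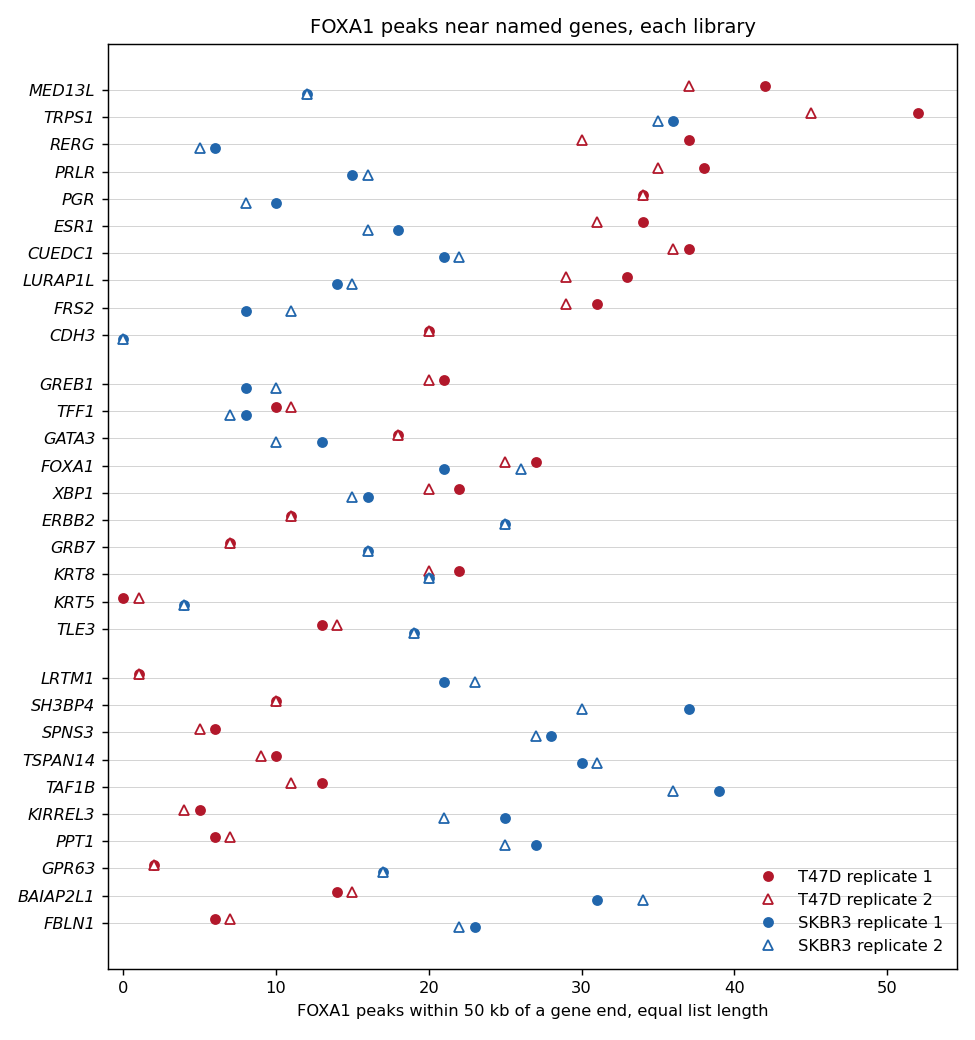
FOXA1 peaks within 50 kb of a gene end in each library at equal list length, T47D in red and SKBR3 in blue; the upper block has the largest T47D excess, the lower the largest SKBR3 excess, and the middle genes were named whatever their values. PGR had 34 and 34 peaks in T47D and 10 and 8 in SKBR3, ERBB2 11 and 11 in T47D and 25 and 25 in SKBR3.

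ERBB2 and its neighbours showed the reverse of the hormone receptor genes. ERBB2, the receptor tyrosine kinase amplified in SKBR3 (chr17:39688094-39728658), had 0 T47D-specific, 8 SKBR3-specific and 10 shared sites, with 15 and 13 peaks in T47D against 25 and 27 in SKBR3. GRB7, an adaptor protein gene of the amplicon, had 10 and 8 peaks in T47D and 16 and 18 in SKBR3. All 14 genes listed for the amplicon had an SKBR3-specific site, against 57.4% of all genes, and 4 had a T47D-specific site, against 76.9%. In lists of equal length both SKBR3 libraries were above both T47D libraries at 13 of the 14 and the reverse at 0, against 28.7% of all genes in each direction. The exception was CDK12, with 8 and 4 peaks in T47D and 8 and 5 in SKBR3 at equal list length. The 14 genes are neighbours and share sites, and in an amplified stretch more copies of the DNA and more binding per copy cannot be told apart.

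The other receptors and ligands of the family went both ways. ERBB4 had 41 and 33 peaks in T47D and 10 and 15 in SKBR3, with 19 T47D-specific sites and 1 SKBR3-specific site. EGFR had 1 T47D-specific and 12 SKBR3-specific sites (an excess of -11, and of -7 without T47D replicate 2), with 19 and 12 peaks in T47D against 26 and 23 in SKBR3. AREG, a ligand of EGFR and an estrogen target, had 13 and 18 peaks in T47D and 7 and 9 in SKBR3. Of the 14 receptor and ligand genes, at equal list length 7 had both T47D libraries higher and 6 both SKBR3 libraries higher. Over all genes the share was 28.7% in each direction.

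Estrogen response genes leaned to T47D. In whole lists all 21 members had a T47D-specific site, against 76.9% of all genes. An SKBR3-specific site was near 13 (61.9%), close to the 57.4% of all genes. More T47D-specific sites were near 13, against 52.8% of all genes, and more SKBR3-specific sites near 4, against 27.7%. The median excess was 2 sites, against 1 over all genes, and at equal list length 1 against 0. Of the 21, 10 at equal list length had both T47D libraries above both SKBR3 libraries and 3 the reverse, against 28.7% of all genes in each direction. In whole lists SIAH2, a ubiquitin ligase, had 28 and 24 peaks in T47D and 5 and 4 in SKBR3. This gene was chosen after its values were seen. Members named for an SKBR3 excess, each of 1 site, were MREG, CA12 and RET, and all 3 changed sign under some alternative. MREG had 23 and 21 peaks in T47D and 23 and 22 in SKBR3, and in lists of equal length 18 and 12 in T47D and 23 and 21 in SKBR3. CA12, a carbonic anhydrase, had 17 and 15 in T47D and 17 and 14 in SKBR3. RET, a receptor tyrosine kinase, had 9 and 8 in T47D and 7 and 7 in SKBR3. TFF1, a secreted trefoil protein and a classical estrogen target, had 10 and 11 in T47D and 8 and 8 in SKBR3, and 7 of its sites were shared.

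Luminal identity genes also leaned to T47D, with exceptions. Of 25 members, at equal list length, 11 had both T47D libraries higher and 5 both SKBR3 libraries higher. This stands against 28.7% of all genes in each direction. The median excess was 4 sites in whole lists, against 1 over all genes, and at equal list length 1 against 0. All 25 had a shared site, against 84.5% of all genes, and so had all 15 housekeeping genes. In whole lists XBP1, a secretory pathway factor, had 28 and 24 peaks in T47D and 16 and 18 in SKBR3. KRT8, a luminal keratin, had 26 and 22 in T47D and 20 and 22 in SKBR3. On the SKBR3 side were KRT7, a simple keratin, with 19 and 18 in T47D and 28 and 27 in SKBR3, and EPCAM, an epithelial adhesion molecule, with 7 and 5 in T47D and 11 and 12 in SKBR3.

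Basal identity genes showed no common lean. Of 20 members, at equal list length, 4 had both T47D libraries higher and 7 both SKBR3 libraries higher, against 28.7% of all genes each way. In whole lists KRT5, a basal keratin, had 1 and 1 peaks in T47D and 4 and 4 in SKBR3. CAV1, caveolin, had 4 and 4 in T47D and 10 and 11 in SKBR3. CDH3 and ACTA2, above, were on the T47D side.

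Androgen response and apocrine genes had both T47D libraries higher at 2 of 18 members and both SKBR3 libraries higher at 6, at equal list length. The share over all genes was 28.7% in each direction. In whole lists FKBP5, a chaperone induced by androgens, had 20 and 18 peaks in T47D and 5 and 6 in SKBR3. At equal list length it had 12 and 13 in T47D and 5 and 6 in SKBR3. HPGD, a prostaglandin-degrading enzyme, had 11 and 10 in T47D and 14 and 16 in SKBR3 in whole lists. At equal list length it had 8 and 7 in T47D and 14 and 15 in SKBR3.

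Corepressor genes were mostly on the SKBR3 side. At equal list length 2 of 14 had both T47D libraries higher and 11 both SKBR3 libraries higher, against 28.7% of all genes each way. In whole lists TLE3, the corepressor mapped in the series, had 15 and 16 peaks in T47D and 19 and 21 in SKBR3. It had 3 T47D-specific and 7 SKBR3-specific sites. TLE1, of the same family, had 26 and 22 in T47D and 27 and 33 in SKBR3.

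The remaining lists, too, stand against 28.7% of all genes in each direction at equal list length. Forkhead factor genes had both T47D libraries higher at 7 of 19 members and both SKBR3 libraries higher at 6, near that share. Genes of other cell types, which include liver, muscle and blood genes, had 3 of 25 and 9 of 25. Housekeeping genes had 0 of 15 and 7 of 15, so that the list of genes that every cell uses also leaned to SKBR3 at equal list length. In whole lists SDHA, a subunit of mitochondrial complex II, had 4 and 3 peaks in T47D and 14 and 12 in SKBR3.

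**Figure D3:**
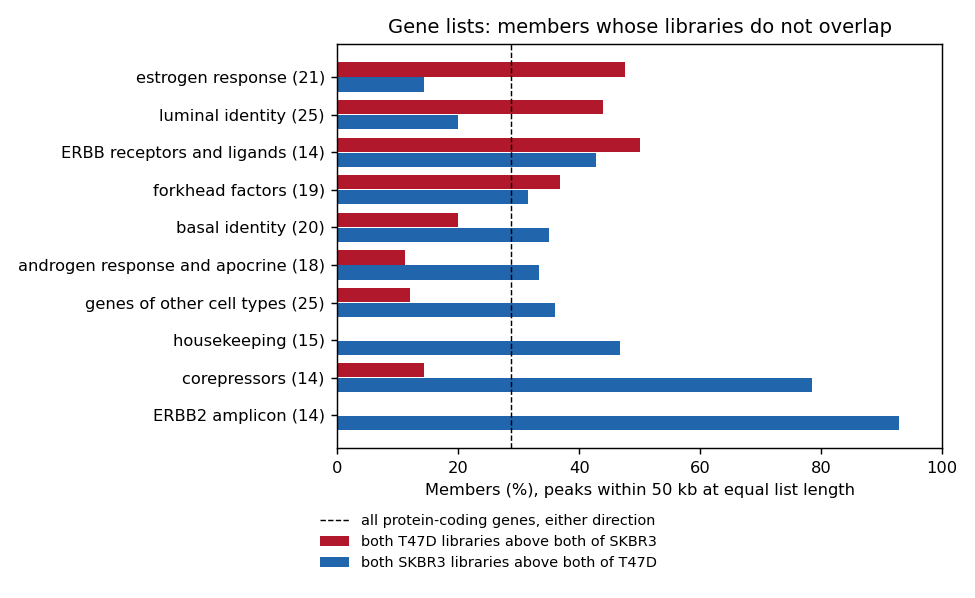
Percent of the members of each list (number in brackets) whose peak counts within 50 kb do not overlap between lines at equal list length, T47D higher in red and SKBR3 higher in blue; the dashed line is the 28.7% of all protein-coding genes found in either direction. Estrogen response stands at 10 of 21 with T47D higher and 3 with SKBR3 higher, the ERBB2 amplicon at 0 and 13 of 14.

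The best ranked T47D-specific sites lay far from genes, except 1 near CCDC170, the gene beside ESR1. This site at chr6:151631896-151634593 (hg38) was 2698 bp wide, at percentiles 99.9 and 99.7 of the T47D lists, and 12051 bp from the nearest end of CCDC170. The best of all, at chr4:115670507-115672366, was 557816 bp from NDST4. All 5 best T47D-specific sites had a FOXA1 peak in both MDA-MB-453 libraries and a TLE3 peak in both T47D libraries. The 5 best SKBR3-specific sites had KLHL29, ERG, ERRFI1, URB1 and MICAL2 as nearest genes, and those at ERG, URB1 and MICAL2 lay within the gene. ERG encodes an ETS factor and ERRFI1 an inhibitor of EGFR and ERBB2 kinases. All 5 had a peak of SKBR3 TLE3 replicate 1, the site at KLHL29 alone 1 of replicate 2, none had TLE3 in T47D, and 2 of the 5 had a FOXA1 peak in MDA-MB-453.

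FOXA1 of the third line, which neither class was chosen on, was found at T47D-specific sites more often than at SKBR3-specific sites. The MDA-MB-453 libraries had a peak at 58.1% and 48.7% of T47D-specific sites, at 36.1% and 30.1% of SKBR3-specific sites and at 86.3% and 81.8% of shared sites. The order was the same at equal list length, with means of 59.5% and 38.6% for T47D-specific and SKBR3-specific sites. Neither MDA-MB-453 library had a peak at 38.5% of T47D-specific and 61.8% of SKBR3-specific sites. At score percentiles 75 to 100 the shares were 74.0% and 68.9% for T47D-specific sites and 47.2% and 41.7% for SKBR3-specific sites. The MDA-MB-453 lists were not cut to the same length, and MDA-MB-453 is estrogen receptor negative like SKBR3.

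TLE3 was found at specific sites less often than at shared sites of the same line when all sites were taken. In T47D, TLE3 replicates 1 and 2 had a peak at 11.0% and 23.4% of T47D-specific sites, against 32.9% and 51.8% of shared sites. In SKBR3, TLE3 replicates 1 and 2 had a peak at 15.3% and 15.8% of SKBR3-specific sites, against 24.7% and 26.4% of shared sites. At T47D-specific sites, where SKBR3 had no FOXA1 peak, SKBR3 TLE3 replicates 1 and 2 had a peak at 0.215% and 12.3%. TLE3 replicate 2 of SKBR3 stood apart, as its share at SKBR3-specific sites moved less with the FOXA1 score: it was 14.1% at percentiles 0 to 25 and 24.3% at 75 to 100, against 4.27% and 51.5% in replicate 1. By score the libraries differed. At percentiles 75 to 100, T47D-specific sites had TLE3 at 41.3% and 61.7% and T47D shared sites at 52.6% and 72.1%, while in SKBR3 specific and shared sites had 51.5% and 51.3% in TLE3 replicate 1 and 24.3% and 31.0% in replicate 2. At percentiles 50 to 75, SKBR3 replicate 1 had 18.5% at specific and 10.5% at shared sites, and replicate 2 had 16.3% and 23.1%, so the 2 SKBR3 libraries give opposite orders there.

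**Figure D4:**
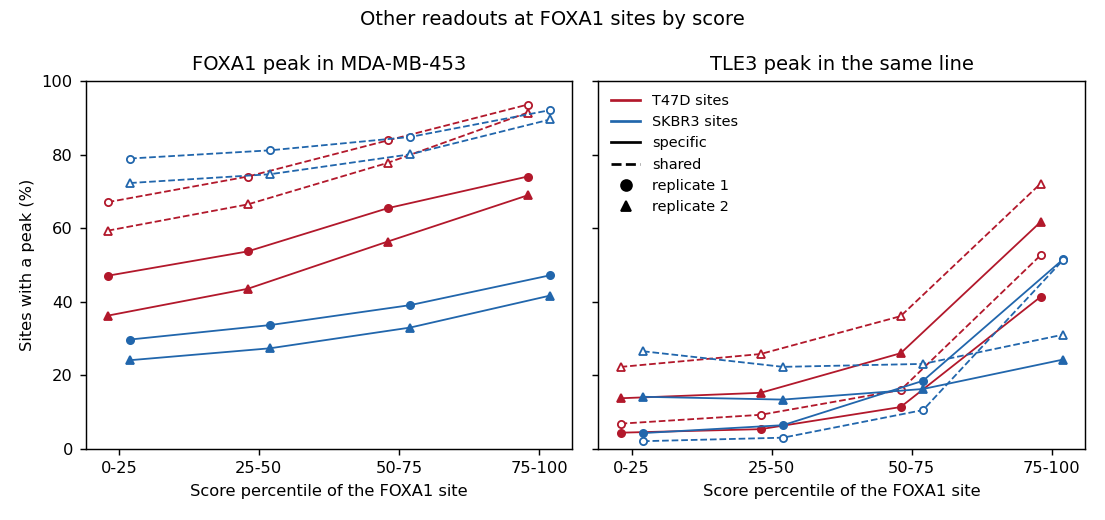
Percent of FOXA1 sites with a FOXA1 peak in MDA-MB-453 (left) or a TLE3 peak in the same line (right) by the score percentile of the site; T47D sites in red, SKBR3 sites in blue, specific sites as full lines with filled points, shared sites as dashed lines with open points, circles and triangles for replicates 1 and 2 of the library read. T47D-specific sites lie above SKBR3-specific sites in the left panel at every range, with 74.0% and 68.9% against 47.2% and 41.7% in the last.

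FOXA1 peaks were spread differently over the chromosomes. Both T47D libraries had a higher share of their peaks than both SKBR3 libraries on 34.8% of 23 chromosomes (8), and both SKBR3 libraries a higher share on 56.5% (13); the counts were the same at equal list length. Chromosome 5 held 7.41% and 7.67% of the T47D peaks and 5.79% and 5.90% of the SKBR3 peaks. Chromosome 2 held 6.73% and 6.54% in T47D and 8.53% and 8.58% in SKBR3. Chromosome 22 held 1.00% and 0.939% in T47D and 1.48% and 1.44% in SKBR3. Specific sites leave out the sites common to both lines, so a wider gap among them follows from their definition. Chromosome 22 held 0.589% of T47D-specific and 1.87% of SKBR3-specific sites, and chromosome 5 held 8.93% and 4.91%. On chromosomes 15 and 18 the libraries of the lines overlapped. Copy number, which was not measured, and binding cannot be told apart.

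**Figure D5:**
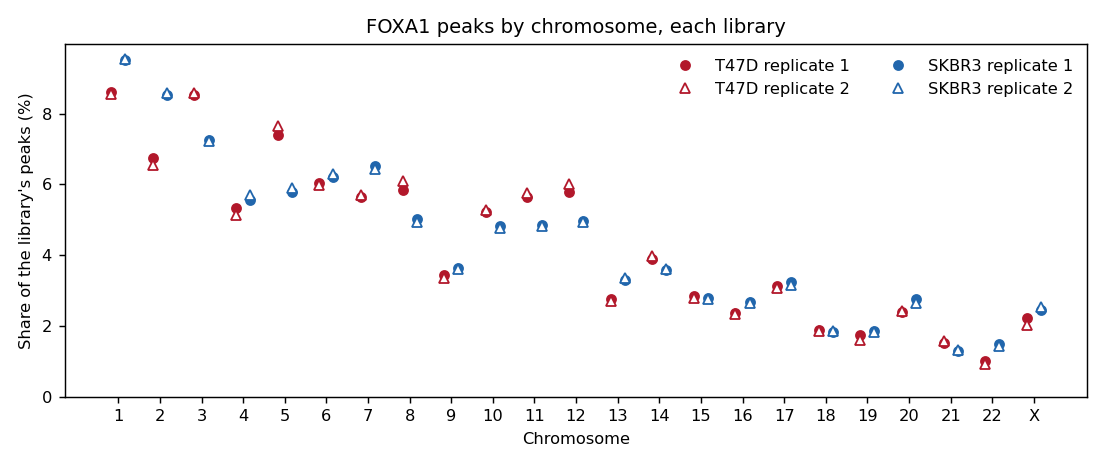
Share (%) of each library's FOXA1 peaks on each chromosome, T47D in red left of SKBR3 in blue, circles and triangles for replicates 1 and 2. Replicates lie close together, and the lines stand apart on chromosomes 2, 5 and 22, with 6.73% and 6.54% in T47D against 8.53% and 8.58% in SKBR3 on chromosome 2.

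A site of the same class lay within 10 kb of 41.6% of T47D-specific and 43.1% of SKBR3-specific sites, and of 52.7% and 52.4% of the shared sites of T47D and SKBR3. With lists of equal length the shares were 32.0% of T47D-specific and 45.9% of SKBR3-specific sites. Of 2866 bins of 1 Mb with a specific site, 1873 held more T47D-specific and 915 more SKBR3-specific sites. Of the specific sites, 50% lay in 709 bins for T47D and 643 for SKBR3. These bins are of whole lists, with 44678 T47D-specific and 26091 SKBR3-specific sites, and were not compared at equal list length. The bin with the largest T47D excess, at 116000001 to 117000000 of chromosome 12 with MED13L, held 108 T47D-specific and 3 SKBR3-specific sites. The bin of PGR on chromosome 11, at 101000001 to 102000000, held 75 and 6. The bin with the largest SKBR3 excess, at 55000001 to 56000000 of chromosome 3 with CACNA2D3, WNT5A and ERC2, held 1 T47D-specific and 62 SKBR3-specific sites. WNT5A encodes a WNT ligand of the noncanonical pathway. The bin of TRIB2, a pseudokinase gene on chromosome 2, held 1 and 48, and the bin of DAPK1, a kinase gene on chromosome 9, held 2 and 43.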

How the data were processed

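FOXA1 ChIP-seq peaks of T47D and SKBR3, 2 libraries a line, were compared. TLE3 lists of both lines and FOXA1 lists of MDA-MB-453 served as further readouts. The submitters' processing notes name hg38, MACS2, SAMtools, BWA 0.7.5a and Trim Galore. The settings of MACS2, its controls and any filters were not given in the sources used here. A deposited list has 5 columns, and the score in the last is the authors' own value per peak, of a quantity that is not named; its lowest values in the 4 lists were 2.00 to 2.04. It served only to rank peaks within a list. Each library has its own list, so replicates were not pooled. Lists give no counts, so depth is unknown.

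The 6 peaks outside chromosomes 1 to 22 and X were left out. Replicates shared 8 identical intervals a pair and were not copies. Gene positions and promoters are from RefSeq, GRCh38.p14, the build of hg38; all 185 entries of 10 gene lists matched. Gene ends were used because the gene table gives no strand, and transcription starts from the promoter table were added after seeing the data. Python 3.11.15, NumPy 2.4.6, pandas 2.3.3, SciPy 1.17.1 and matplotlib 3.10.9 were used. Tests take the library as unit, and scripts were tested on simulated lists. The members and lists were chosen with earlier results of these data known. Named are the 10 genes with the largest excess each way, the genes at the 5 best ranked sites of each class, up to 3 members of each list in each direction, and ESR1, PGR, GREB1, TFF1, GATA3, FOXA1, XBP1, ERBB2, GRB7, KRT8, KRT5 and TLE3. Only some of these are printed, and results for some genes under this rule are left out here; SIAH2 and the genes of bins and promoters were named after their values were seen. No genome sequence was used, so motifs at distal sites were not analysed here.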

Additional observations from a re-analysis of the deposited data

How the results depend on the processing

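The mean of each tested result kept its sign under each alternative run. These were the upper 50% of a list, equal list length, an overlap of 50% and sites from either replicate. The others were other gene windows, no peak of the other line within 1 kb, and each library left out. Single libraries did not always keep the direction, as given above for gene ends. With gene ends within 3 kb the difference between the lines was 0.70 points and the libraries overlapped (exact permutation p = 0.667). At equal list length, 56.0% of T47D sites were shared and 33.1% specific, against 54.0% and 35.6% in SKBR3; SKBR3-specific sites had TLE3 at 16.2% and MDA-MB-453 FOXA1 at 38.6%. In the upper 50% by score, 44.1% of T47D sites were specific, 58.9% of SKBR3 sites shared and 32.6% specific; T47D-specific and SKBR3-specific sites had TLE3 at 31.7% and 25.2% and MDA-MB-453 FOXA1 at 72.6% and 50.1%. With sites from either replicate, 46.7% of T47D sites were shared and 53.3% specific, against 64.0% and 36.1% in SKBR3. No site can be between under this definition, as every peak of the other line then makes a site. There, T47D-specific sites had MDA-MB-453 FOXA1 at 41.0% and SKBR3-specific sites TLE3 at 11.7%. Within 10 kb, 8720 genes had a T47D-specific, 4763 an SKBR3-specific and 10736 a shared site, since fewer sites are counted. With no peak of the other line within 1 kb, 35.6% of T47D and 24.3% of SKBR3 sites were specific.

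Leaving out each library in turn gave 40.2% to 55.6% shared and 44.4% to 49.2% specific for T47D, and 54.3% to 67.0% shared and 32.1% to 35.2% specific for SKBR3, where a site then needs fewer libraries. TLE3 then ran from 11.3%, without T47D replicate 1, to 18.1% at T47D-specific sites, against 17.2% with all libraries, and from 12.5% to 16.04% at SKBR3-specific sites. Without T47D replicate 2 the excess at RERG was 41 in place of 25, at LURAP1L 32 in place of 21 and at EGFR -7 in place of -11. MDA-MB-453 FOXA1 ran from 42.7% to 56.1% at T47D-specific and 30.5% to 38.4% at SKBR3-specific sites. Counting each site for its nearest gene alone gave KIRREL3 an excess of 4 T47D-specific sites in place of -14, a count that is not limited to 50 kb. Of 28 named genes with an excess of 10 sites or more either way, it was the 1 whose sign changed; of the other named genes 13 changed sign under some alternative, among them CDK12, TLE1, TLE3, MREG, CA12 and RET. Replicate numbers did not pair the samples: the deviations of replicate 1 from the line means correlated at r = 0.0199 over 2878 bins. With a replicate block the permutation test of peak number (log2 ratio 0.40), gene ends (1.22 points) and width (-46.5 bp) gave p = 0.5, the smallest it allows.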

Other observations

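Long stretches without a FOXA1 peak in either library of the other line, chosen after the data were seen, fell in gene-poor and gene-rich places. The stretch chr19:20233600-27652898 (hg38), with 31 protein-coding genes that are mostly zinc finger genes, held 190 and 180 FOXA1 peaks in T47D and 168 and 129 in MDA-MB-453, and 0 in both SKBR3 FOXA1 libraries. The SKBR3 TLE3 libraries had 1 and 2 peaks there, against 45 and 84 in the T47D TLE3 libraries. On chromosome 8, the stretch at 104162922 to 105770545 with RIMS2, DCSTAMP, DPYS, LRP12 and ZFPM2 held 83 T47D sites and 107 and 111 T47D peaks, and 0 in both SKBR3 FOXA1 libraries. The stretch on chromosome 3 at 146682547 to 147532224 with ZIC1 and ZIC4, transcription factors of the brain, held 50 T47D sites.

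All stretches were taken from whole lists, in which T47D had more peaks, and were not compared at equal list length. Of the stretches with most sites of the other line, those without a T47D peak were shorter. The one with most SKBR3 sites, at 54892069 to 55109799 of chromosome 3 with CACNA2D3 and LRTM1, was 217.7 kb long and held 0 and 0 FOXA1 peaks in T47D, 22 and 22 in SKBR3 and 10 and 7 in MDA-MB-453. TLE3 had 0 and 0 peaks there in T47D and 3 and 9 in SKBR3. On chromosome 9, the stretch at 95058016 to 95115917 with AOPEP and FANCC, a Fanconi anaemia gene, held 18 and 13 FOXA1 peaks in SKBR3 and 0 in both MDA-MB-453 libraries. Copy number was not measured, and its part in these stretches was not tested.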
